A study of Mus musculus with 8 samples.

Results

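The transcriptome of regulatory T cells (Treg) was set against that of effector T cells (Teff) in wild-type (WT) mice with experimental autoimmune encephalomyelitis (EAE), a model of multiple sclerosis started by immunization with the myelin antigen MOG. The members were the genes with a normalized read number of at least 10 in at least 2 of the 4 WT libraries, 12839 of the 18438 genes in the table (69.6%). The effect was the difference between the group means of log2(value + 1), with Treg as the first group, so that a positive value is higher in Treg. On this scale the change of weakly expressed genes is understated. Of these genes, 334 passed the filter through the Treg libraries only and 246 through the Teff libraries only.

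All mice were C57BL/6, and cells were taken from the spleen on day 7 of EAE. Treg were sorted as CD4+ CD25hi YFP+ cells and Teff as CD4+ CD25- YFP- cells. Each of the 2 groups had 2 libraries, and the same 2 cell types from mice labelled IRE1a-/- (KO) gave 4 further libraries, which shared the estimate of the spread. The labels name neither the promoter that drives YFP nor the cells that lost IRE1a, and they give no age, no sex and no number of pooled animals. Nor do they say if both libraries of a cell type come from different mice, so each p-value covers the library-to-library spread alone, and this spread may be technical. In bulk RNA, fewer cells of a type and less RNA per cell cannot be told apart.

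Treg hold back immune responses, including those against the body's own tissue. The transcription factor FOXP3 keeps their identity, and they take up interleukin-2 through CD25 without making it themselves. Conventional CD4 T cells that meet antigen turn into helper subsets such as Th1 and Th17 cells, which drive EAE, while the CD25-negative gate also keeps cells that were never activated.

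In the WT libraries the values summed to between 17726355 and 18751258, and between 16390 and 16642 genes were above 0. On the log2 scale, and over 10429 well expressed genes, the correlation was 0.981 between the Treg libraries and 0.978 between the Teff libraries. The genes are not independent replicates, and no library repeated another. The library sums were nearly even but follow normalization, so they do not measure sequencing depth. The precision rests on 2 libraries per group.

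The sort was visible in the RNA. Foxp3 (chromosome X, 7573644 to 7595245 of GRCm38) had normalized read numbers of 89.1 and 92.2 in the Treg libraries and was listed at 0 in both Teff libraries. Il2ra, which encodes CD25 (chromosome 2, 11642807 to 11693193), had 8943 and 9012 in Treg against 690 and 588 in Teff. CD25 was used to sort the cells, so this difference is no finding. Cd4, also in both gates, had 19085 and 17464 in Treg against 25059 and 25016 in Teff, a log2 fold change of -0.46 ± 0.05 (SE; adjusted p = 0.000976 by limma with Benjamini-Hochberg adjustment over all genes tested, as for every adjusted p that follows). The T cell receptor genes Cd3d, Cd3e and Cd3g did not pass the test, with log2 fold changes of -0.17, 0.15 and -0.11. Both populations thus held the RNA of CD4 T cells, and only the Treg libraries held Foxp3. Ern1, the gene of IRE1a, was not targeted in these mice and had 377 and 399 in Treg against 559 and 616 in Teff (log2 fold change -0.59 ± 0.10 SE, adjusted p = 0.00531).

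The difference between the cell types was wide. At an adjusted p below 0.05, 3366 of 12839 genes (26.2%) were called, 1814 (14.1%) higher and 1552 (12.1%) lower in Treg, and 4840 had an unadjusted p below 0.05. The calls include 188 of the 334 genes that passed the filter through Treg only and 142 of the 246 through Teff only. The filter itself fixed the direction of these genes. Foxp3, Lypd1 and Gbp2b passed through Treg only, and Zbtb16, Il22 and Siglech through Teff only. Many calls were small: 1158 lay under 1.5-fold, and 1457 (11.3%) were over 2-fold, 961 of them higher (7.49%) and 496 lower (3.86%). The median log2 fold change over all genes tested was -0.0017. Without WT Treg replicate 2 the calls numbered 2149, and over all single libraries left out they ranged from 2149 to 2581.

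**Figure D1:**
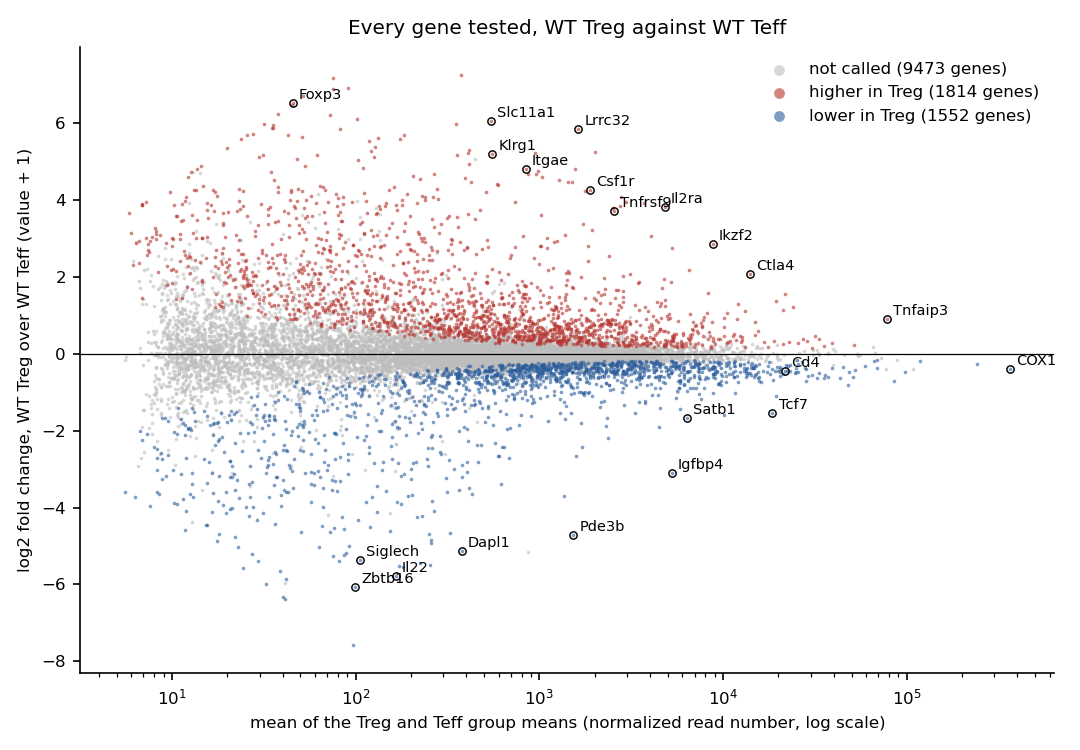
Each point is 1 of the 12839 genes tested, placed by the mean of its Treg and Teff group means (normalized read number, log axis) and its log2 fold change of WT Treg over WT Teff, both with 2 libraries per group. Red points are the 1814 genes called higher in Treg and blue points the 1552 called lower, and circles mark genes named in the text. Foxp3, listed at 0 in Teff, is placed by log2(value + 1).

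Genes of other cells were present in both sorts and differed between them. Of 12 tested macrophage and monocyte markers, all 12 were higher in Treg, with a median log2 fold change of 4.11. Their summed values were 24456 and 25555 in the Treg libraries against 2687 and 1169 in the Teff libraries. For this and the other marker lists, the sums cover every measured gene of the list, also those below the filter. Csf1r, the receptor for a macrophage growth factor, had 3472 and 3656 against 300 and 114, and Hmox1, which breaks down haem, had 5311 and 5725 against 531 and 241. The 2 Teff libraries differed more than 2-fold (on value + 1, in either direction) in 9 of these 12 genes, all 9 higher in replicate 1. The same was found for 6.18% of all genes tested and for 1 of the 28 Treg identity genes, Lrrc32, which was higher in replicate 2. With a library left out 11 to 12 were higher. Of 8 tested red cell and platelet genes 5 were higher, with sums of 1971 and 2001 against 494 and 245; Ppbp of this list was listed at 0 in all WT libraries. The haemoglobin genes among them are near copies of each other.

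Most tested markers of NK, gamma-delta and NKT, CD8 T and dendritic cells were lower in Treg, whereas B cell markers were not. Of 9 tested NK cell genes 8 were lower and 1 higher (median -2.44), with sums of 1133 and 1250 in Treg against 2928 and 3163 in Teff. Klrk1, an activating receptor, had 15.5 and 27.1 against 271 and 358, while Ncr1, a defining NK receptor, fell below the filter and was listed at 0 in the Treg libraries. All 6 tested gamma-delta and NKT genes were lower (median -2.79; sums of 359 and 397 against 1571 and 1901), as were 7 of 10 dendritic cell genes, with 1 higher (median -3.43; sums of 1510 and 1522 against 2264 and 3169). Cd209a, a lectin of monocyte-derived and dendritic cells, was listed at 0 in both Treg libraries and had 34.2 and 63.6 in Teff. Of 7 tested CD8 T cell genes 4 were lower (median -0.76; sums of 390 and 374 against 893 and 993), but Cd8a itself had 44.3 and 33.4 against 43.1 and 47.8. Of 11 tested B cell genes 3 were higher and 8 were not called (median 0.27). The list sums were 12200 and 12113 against 6221 and 6043. Most of each sum was Ighm, which was called higher, with 11095 and 11081 against 5459 and 5137. Of 6 tested neutrophil genes 1 was higher, and it was lost without either Treg library (sums of 198 and 213 against 193 and 41.9); Ly6g was listed at 0 in every WT library. The part of these cells in the differences described next was not tested. It bears on genes shared with them, such as Prf1, Nkg7, Ccl5 and Eomes, which NK cells also express. The macrophage and monocyte sums were higher in Treg, so the limit also holds for genes called higher that those cells share, in every list below.

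**Figure D2:**
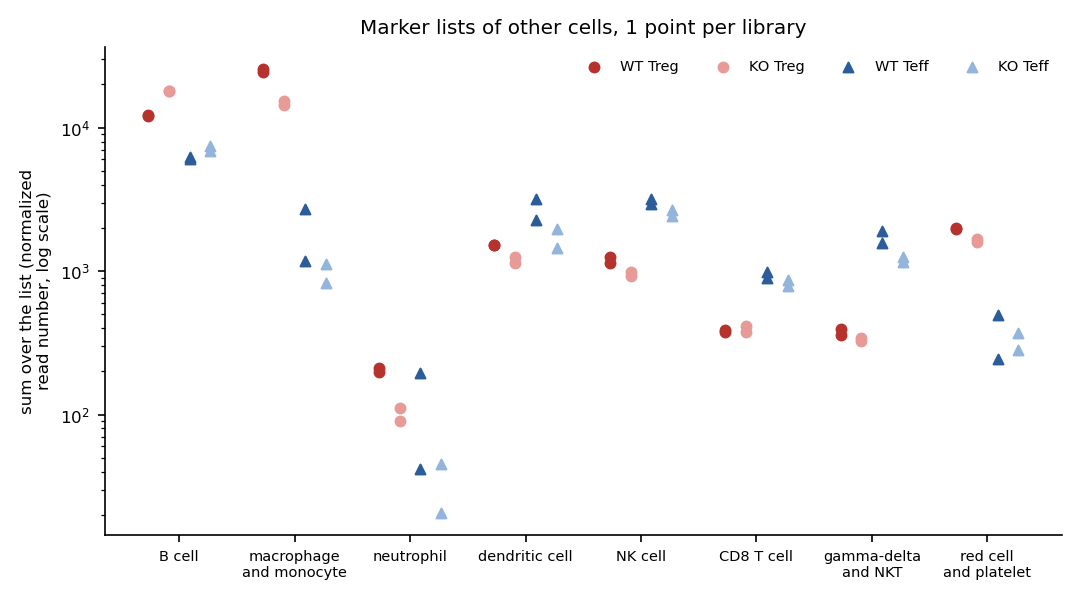
Summed normalized read number of all measured genes of 8 marker lists of other cells, also those below the filter (log axis), with 1 point per library. Circles are Treg, triangles are Teff, dark colours are WT and light colours KO. Macrophage and monocyte genes sum to 24456 and 25555 in WT Treg against 2687 and 1169 in WT Teff, and the lists of NK, CD8, gamma-delta and NKT and dendritic cells lie lower in Treg.

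The Treg identity genes were higher in Treg nearly without exception. Of 28 listed genes, all tested, 26 were higher, 1 was lower and 1 was not called, with a median log2 fold change of 2.07. Il2ra, the gene of the sort marker CD25, is counted among the higher genes. The same counts were found in each of 15 alternative analyses, 4 of which left out 1 library. The lower gene was Satb1, which encodes a chromatin organizer that mature Treg keep at a low level. It had 3078 and 2980 in Treg against 9940 and 9327 in Teff (log2 fold change -1.67 ± 0.06 SE, adjusted p = 6.83e-06). Icos, a costimulatory receptor, was the gene not called, with 4396 and 4475 in Treg against 3948 and 4024 in Teff.

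Tnfrsf9, which encodes the costimulatory receptor 4-1BB (chromosome 4, 150914562 to 150946102), had the smallest p of the list. Its values were 4608 and 4815 in Treg and 358 and 360 in Teff, 13.1-fold apart (log2 fold change 3.71 ± 0.07 SE, adjusted p = 2.22e-06). Swap70, a protein that acts on the actin cytoskeleton (chromosome 7, 110221711 to 110283506), had 1470 and 1444 in Treg against 177 and 172 in Teff, an 8.32-fold difference. Tnfrsf4 and Ctla4 followed. Tnfrsf4, which encodes OX40, had 9033 and 9267 against 1362 and 1333 (6.79-fold). Ctla4, an inhibitory receptor that removes costimulatory ligands from antigen-presenting cells, had 22976 and 22445 against 5351 and 5470 (4.20-fold). None of these 4 genes overlapped between the cell types, which also held for 8263 of the 12839 genes tested (64.4%), and the Treg libraries differed from each other by far less than they differed from Teff.

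Apart from Foxp3, the largest log2 fold changes of the list were those of Lrrc32, Itgae and Ikzf4, at 5.84, 4.80 and 4.23. Lrrc32 encodes GARP, which holds latent TGF-beta on the Treg surface. It had 3312 and 3073 in Treg but 30.2 and 98.6 in Teff, so the Teff libraries were themselves apart while both stayed far below Treg (log2 fold change 5.84 ± 0.45 SE, adjusted p = 0.000148). Itgae, the integrin chain CD103, had 1625 and 1630 against 45.3 and 72.6. Ikzf4 (Eos), of the Ikaros family, had 3149 and 3565 against 200 and 158, so that all 3 genes kept a low level in Teff. Further down the list, Gpr83, a G protein-coupled receptor long used as a Treg marker, had 1289 and 1284 against 184 and 189 (6.88-fold). The Ikaros family factor Ikzf2 (Helios) had 15459 and 15306 against 1656 and 2724 (7.24-fold), and Teff were thus not free of it.

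The sequence before annotated transcript starts of these genes was examined for short words that factors of Treg are known to bind. RefSeq windows of 250 bases before a transcript start (GRCm38.p6) were held for 19 of the 28 genes, 26 windows in all, and 6 genes had at least 1 of 4 motifs on either strand. The motifs were a forkhead word (GTAAACA or TGTTTAC), a STAT word (TTCNNNGAA), an AP-1 word (TGANTCA) and a RUNX word (TGTGGTT or AACCACA). The windows of Foxp3, Tnfrsf18, Tnfrsf9 and Swap70 are shown because they belong to the lineage factor and to 3 other Treg genes that were called higher, and capitals mark the motifs. Each start is that of a transcript and need not be the first base of the gene. The printed Foxp3 and Tnfrsf9 windows lie inside the whole-gene coordinates given above. The Tnfrsf18 window, with its STAT word, runs past the first base of its gene, and only the Swap70 window lies wholly before its gene.
Foxp3 (second window, chrX:7580233-7580482, plus strand, STAT word 139 bases before the start): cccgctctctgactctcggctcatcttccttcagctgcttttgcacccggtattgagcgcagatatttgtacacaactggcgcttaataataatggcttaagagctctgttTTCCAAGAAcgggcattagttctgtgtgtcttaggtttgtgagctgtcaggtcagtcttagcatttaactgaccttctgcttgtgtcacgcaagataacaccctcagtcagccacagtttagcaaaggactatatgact
Tnfrsf18 (chr4:156026072-156026321, plus strand, STAT word 99 bases before the start): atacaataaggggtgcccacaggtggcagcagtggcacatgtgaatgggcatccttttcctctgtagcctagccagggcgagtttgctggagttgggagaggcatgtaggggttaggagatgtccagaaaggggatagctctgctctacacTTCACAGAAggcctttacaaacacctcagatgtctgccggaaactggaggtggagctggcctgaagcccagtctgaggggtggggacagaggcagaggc
Tnfrsf9 (second window, chr4:150927749-150927998, plus strand, STAT word 136 and AP-1 word 15 bases before the start): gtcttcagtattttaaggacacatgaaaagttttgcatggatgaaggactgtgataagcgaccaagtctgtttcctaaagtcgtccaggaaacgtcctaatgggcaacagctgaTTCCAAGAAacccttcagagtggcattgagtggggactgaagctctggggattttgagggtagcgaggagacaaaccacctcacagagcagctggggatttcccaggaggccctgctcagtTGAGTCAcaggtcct
Swap70 (chr7:110221453-110221702, plus strand, forkhead word 107 bases before the start): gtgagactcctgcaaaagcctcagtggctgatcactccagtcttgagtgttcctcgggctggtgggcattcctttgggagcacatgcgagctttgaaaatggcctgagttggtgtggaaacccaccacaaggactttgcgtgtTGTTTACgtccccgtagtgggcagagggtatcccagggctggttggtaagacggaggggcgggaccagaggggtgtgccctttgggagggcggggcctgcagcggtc
Ecm1 held the AP-1 word and Tigit the RUNX word, and their windows are not printed. These words are common. Shares over all genes count only the first window of each gene. Among the 9921 tested genes with a window, 6.23% held the STAT word, against 6.16% of genes higher in Treg and 4.92% of genes lower. The second windows of Foxp3 and Tnfrsf9 lie outside these shares, which are therefore no background for them. The forkhead word was held by 2.19%, 2.43% and 2.37% in the same order, the AP-1 word by 4.32%, 4.87% and 4.75%, and the RUNX word by 3.26%, 3.58% and 4.33%. A match is a description of letters and not a bound site.

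**Figure D3:**
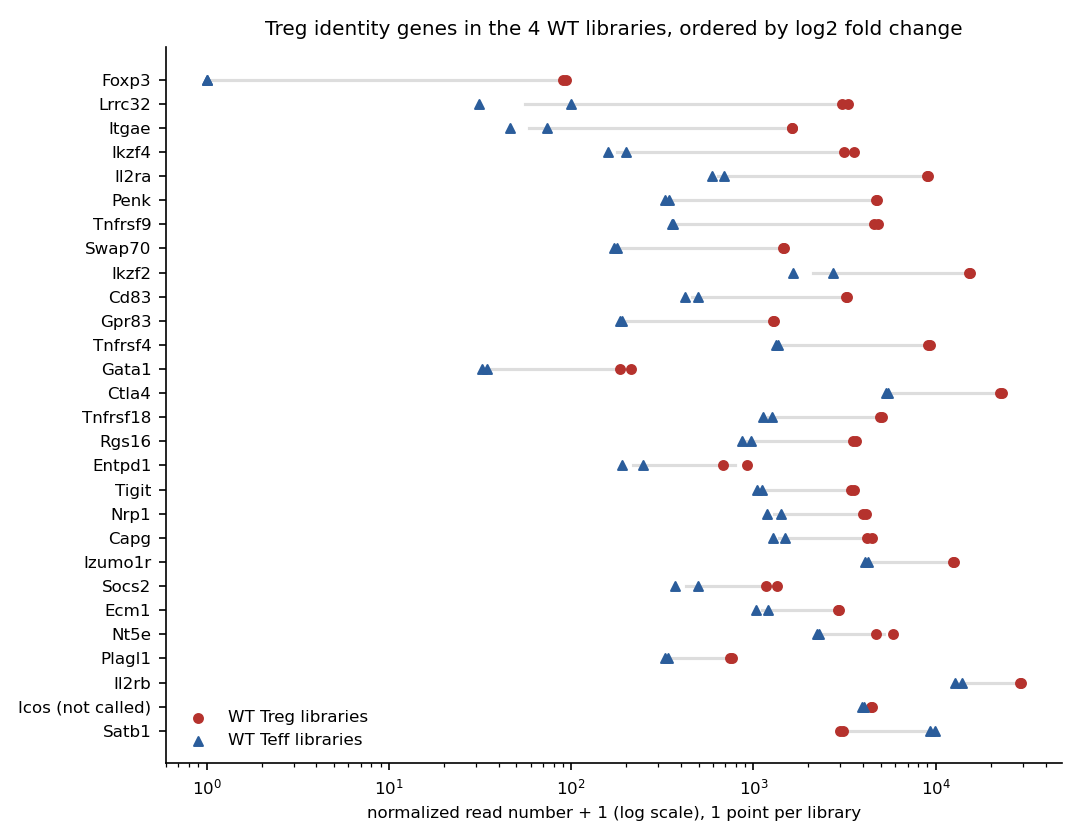
The 28 Treg identity genes, ordered by log2 fold change, with 1 point per WT library on a log axis of normalized read number + 1; red circles are Treg, blue triangles are Teff, and the grey line joins the geometric means of the groups. The Treg points lie to the right of the Teff points in every row but Satb1, and Icos is the row where they lie closest.

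The TNF receptor superfamily, whose members give T cells survival and growth signals, was more often higher than lower in Treg. Of 16 tested members 7 were higher and 1 was lower, with a median log2 fold change of 0.58. Tnfrsf18, which encodes GITR, had 4930 and 5097 in Treg against 1132 and 1267 in Teff (4.18-fold, adjusted p = 8.62e-06). Tnfrsf4 and Tnfrsf18 are neighbours on chromosome 4, at 156013843 to 156016612 and 156026164 to 156028895 of GRCm38. Tnfrsf8, which encodes CD30, had 757 and 750 against 68.1 and 51.3 (12.6-fold). The member that was lower, Tnfrsf26, had 425 and 484 in Treg against 1017 and 999 in Teff, and it was named after its values were seen.

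Among the CD28 family and other co-receptors, 7 of 17 tested members were higher and 3 lower, and the median was 0.15. Tigit, an inhibitory receptor, had 3408 and 3566 in Treg against 1107 and 1043 in Teff (3.24-fold, adjusted p = 3.23e-05). Cd2, an adhesion receptor, had 12391 and 12623 against 7549 and 7829 (1.63-fold). Slamf6 was lower, with 4299 and 4275 against 7330 and 7302 (log2 fold change -0.77 ± 0.05 SE, adjusted p = 5.65e-05). The other lower members were Btla and Cd160, with log2 fold changes of -0.47 and -0.73. The family as a whole therefore had no common direction.

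Products linked to suppression and to effector Treg were mostly higher, with 16 of 23 tested members higher, 3 lower and a median log2 fold change of 0.90. Penk, the precursor of the enkephalin peptides (chromosome 4, 4133531 to 4138819), had 4695 and 4748 in Treg against 328 and 345 in Teff (14.0-fold, adjusted p = 5.93e-06). Klrg1, an inhibitory receptor of terminally differentiated T cells (chromosome 6, 122270596 to 122282882), had 1060 and 1102 against 33.1 and 24.2 (36.9-fold). Areg encodes amphiregulin, a growth factor of tissue repair, and had 1387 and 1376 against 80.4 and 95.8 (15.6-fold). In all 3 genes the Teff values were a small share of the Treg values. The lower members were Prf1, Il18r1 and Lgals1. Prf1, which encodes the pore-forming protein perforin, had 73.8 and 86.5 in Treg against 442 and 436 in Teff (log2 fold change -2.44 ± 0.14 SE, adjusted p = 4.58e-05). Il10, an anti-inflammatory cytokine named after its values were seen, had 627 and 642 against 180 in both Teff libraries.

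The genes of naive and resting T cells went the other way. Of 24 tested members 21 were lower in Treg and none was higher, with a median log2 fold change of -1.02. The lower calls numbered 18 to 19 when single libraries were left out. Igfbp4, a secreted protein typical of naive T cells (chromosome 11, 99041244 to 99054392), had 1148 and 1027 in Treg against 10273 and 8555 in Teff (log2 fold change -3.11 ± 0.10 SE, adjusted p = 5.93e-06). S1pr1, the receptor that guides T cells out of lymphoid tissue, had 4680 and 4614 against 10656 and 10357, a log2 fold change of -1.18 ± 0.05. The members not called were Ccr7, Ets1 and Foxo1, at -0.19, 0.08 and -0.06. Ccr7 guides naive T cells into lymph nodes, so lower values did not extend to every homing gene of the list.

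Genes that FOXP3 is known to repress lay lower in Treg without a single exception in sign among those tested. Of 16 tested genes 12 were called lower and none higher, with a median of -1.22. Without single libraries the lower calls numbered 9 to 10. Pde3b, a phosphodiesterase that breaks down cyclic nucleotides (chromosome 7, 114415281 to 114539251), had 87.0 and 141 in Treg against 2794 and 3073 in Teff (log2 fold change -4.71 ± 0.20 SE, adjusted p = 1.60e-05). Tcf7, which encodes TCF-1, a factor of naive and memory-like T cells, had 9628 and 9306 against 29889 and 25303 (log2 fold change -1.54). Il21, a cytokine of helper T cells, had 68.0 and 58.0 against 812 and 789. Il2, named after its values were seen, had 1.96 and 2.94 in Treg against 54.2 and 51.4 in Teff, and the Treg values were too low to size the fold well. Satb1, Pde3b and Tcf7 are also on the naive and resting list, so the lists are not separate evidence.

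Part of the T cell receptor signalling chain was lower in Treg. Of 28 tested members 14 were lower and none was higher, with a median log2 fold change of -0.25. Themis, a receptor-proximal adaptor, had 779 and 901 in Treg against 3805 and 3916 in Teff (log2 fold change -2.20 ± 0.09 SE, adjusted p = 1.54e-05). The TEC family kinase Txk had 640 and 677 against 1985 and 1866 (log2 fold change -1.55). Cd247, the zeta chain of the receptor complex, had 6699 and 6353 against 9907 and 10224 (log2 fold change -0.63). The other 14 members, Zap70 and Vav1 among them, were not called. The lower values thus covered some signalling genes and the zeta chain, while Cd3d, Cd3e and Cd3g were not called.

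**Figure D4:**
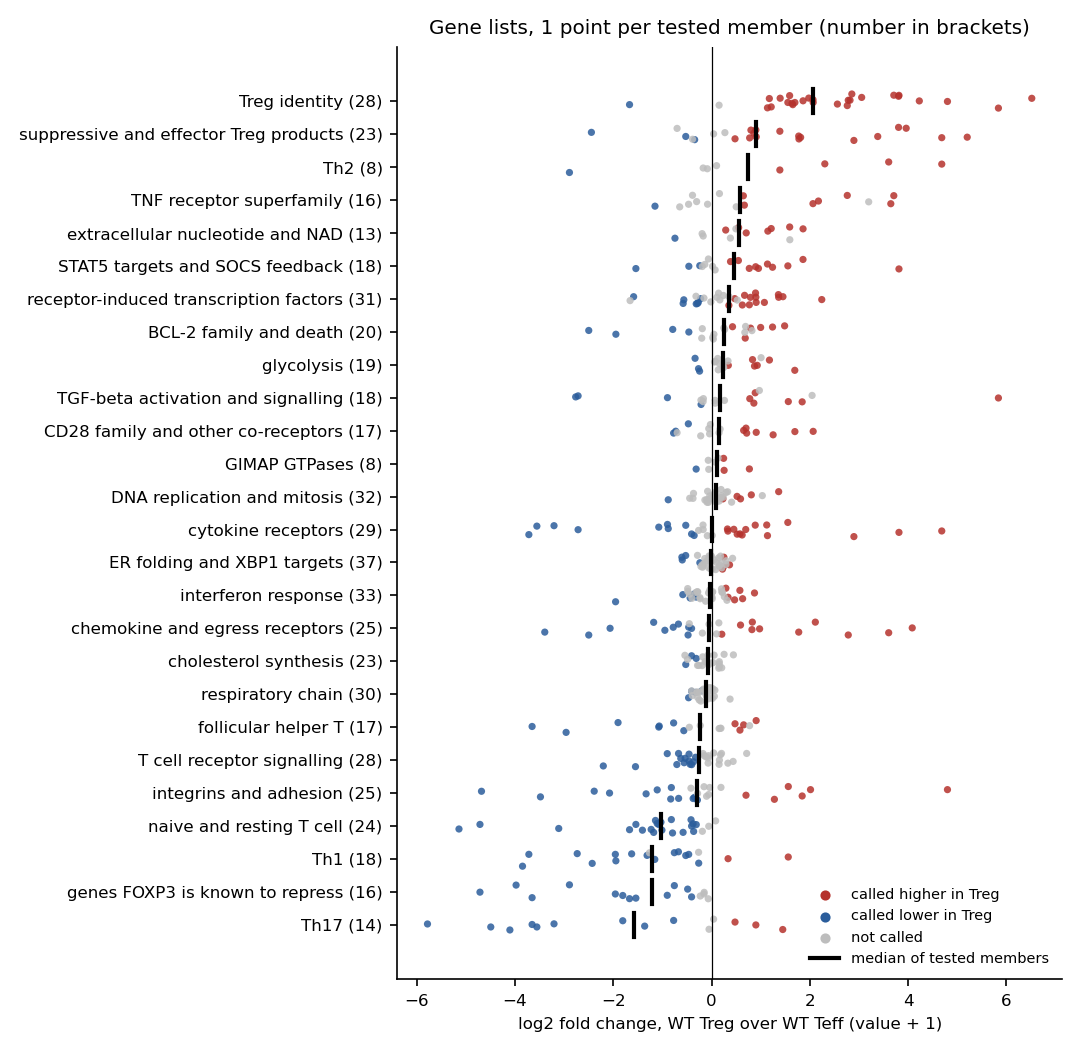
Log2 fold change of WT Treg over WT Teff for each tested member of 26 gene lists (2 libraries per group; number of members in brackets); red and blue points are members called higher and lower in Treg, grey points are not called, and black bars are medians. Treg identity lies highest, with a median of 2.07, and Th17, genes that FOXP3 represses, Th1 and the naive and resting list lie lowest. Some genes appear in more than 1 list.

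The Th1 program, that of interferon-gamma producing helper cells, was lower in Treg. Of 18 tested members 14 were lower and 2 higher, with a median log2 fold change of -1.21. Ccl5, a chemokine of memory T cells and killer cells, had 448 and 428 in Treg against 1393 and 1312 in Teff (log2 fold change -1.62 ± 0.08 SE, adjusted p = 3.00e-05). Il12rb2, which makes T cells sensitive to interleukin-12, had 15.5 and 17.1 against 184 and 277, a log2 fold change of -3.72. Tbx21, which encodes the Th1 master factor T-bet, had 240 and 274 against 610 and 667 (log2 fold change -1.31). Treg thus kept a measurable level of Tbx21. Bhlhe40, at 1.56, was among the members called higher. Nkg7, at -1.15, is also a gene of killer cells, and Ccl5 and Eomes are shared with them as well. The marker sums of NK and CD8 T cells given above were also lower in Treg, and their part was not tested.

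The Th17 program had the lowest median of the lists of T cell genes, at -1.58, with 9 of 14 tested members lower and 3 higher. Il17a, the cytokine that names these cells, had 10.8 and 16.7 in Treg against 231 and 264 in Teff (log2 fold change -4.10 ± 0.27 SE, adjusted p = 7.74e-05). Il17f lies beside it on chromosome 1 and had 3.70 and 5.74 against 134 and 118. Of the higher members, Ahr, which encodes a receptor for aromatic ligands, had 1245 and 1318 in Treg against 492 and 446 in Teff (2.73-fold, adjusted p = 7.74e-05). The other higher members were the transcription factor genes Batf and Maf, at 0.90 and 0.48, both of which also act in effector Treg. Gamma-delta T cells can make interleukin-17 too, and the summed level of their list was 359 and 397 in Treg against 1571 and 1901 in Teff; their part was not tested.

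The Th2 list was not uniform. Of 8 tested members 4 were higher and 1 lower, with a median of 0.75. Ccr8, a chemokine receptor of Th2 cells and tissue Treg, had 1849 and 1909 in Treg against 148 and 159 in Teff (12.2-fold, adjusted p = 5.74e-06). Gata3, the Th2 factor that Treg also use, had 6336 and 7716 against 2743 and 2589 (2.62-fold). Il1rl1 encodes ST2, the receptor for interleukin-33, and had 1653 and 1703 against 62.3 and 66.3 (25.7-fold, adjusted p = 0.000259). The fourth was Pparg, at 2.31. Il4, the defining cytokine, had 5.72 and 8.79 against 51.4 and 68.1 and was lower in Treg (adjusted p = 0.00106).

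Follicular helper genes had no common direction, with 4 of 17 tested members higher, 7 lower and a median of -0.23. Il6ra, a receptor chain for interleukin-6 that this list shares with naive cells, had 2883 and 2803 in Treg against 5797 and 6169 in Teff (log2 fold change -1.07, adjusted p = 2.39e-05). Tox, a transcription factor gene of helper and exhausted T cells, had 3224 and 3244 against 1759 and 1686 (1.88-fold). Bcl6, the factor that defines follicular helper cells, was not called, at -0.23.

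Transcription factors that receptor signals induce were more often higher than lower. Of 31 tested members 14 were higher and 7 lower, with a median of 0.35. The lower calls numbered 3 to 5 with single libraries left out. Rel, the NF-kB subunit c-Rel, had 6257 and 6393 in Treg against 2502 and 2419 in Teff (2.57-fold, adjusted p = 4.90e-05). Nfkbia, which encodes an inhibitor that NF-kB itself induces, had 27581 and 28387 against 10927 and 10771 (2.58-fold). Batf, an AP-1 family factor of effector Treg, had 2109 and 2184 against 1130 and 1166 (1.87-fold). The lowest called member was Ikzf1 (Ikaros), named after its values were seen, with 5297 and 4842 against 14794 and 15609 (log2 fold change -1.58). Ikzf1 and Ikzf2, relatives of one family, thus differed in opposite directions.

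Cytokine receptor genes were spread to both sides, with 14 of 29 tested members higher, 10 lower and a median of 0.01 whose sign changed in 3 of 15 alternatives. Apart from Il2ra, a sort marker that is counted among the higher members, the smallest p belonged to Tgfbr3, a co-receptor for TGF-beta. It had 187 and 170 in Treg against 1081 and 1283 in Teff (log2 fold change -2.71 ± 0.12 SE, adjusted p = 1.88e-05). Il17ra, the receptor chain for interleukin-17, had 2943 and 3040 against 5629 and 5388 (log2 fold change -0.88).

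Receptors of the interleukin-1 family showed opposite directions within a single gene cluster on chromosome 1. The cluster was looked at after its values were seen. Il1r2, a decoy receptor that binds interleukin-1 without passing on a signal (40074079 to 40125231 of GRCm38), had 2206 and 2014 in Treg against 271 and 293 in Teff. Its neighbour Il1r1, the signalling receptor (40225080 to 40317257), had 73.2 and 43.1 against 600 and 751. The decoy was thus higher in Treg by 2.90 ± 0.21 and the signalling receptor lower, at -3.55 ± 0.27 (log2 fold change and SE, adjusted p = 0.000117 and 0.000140). Il1rl2, the next gene, was lower at -3.17, Il1rl1 was higher as described, and Il18r1, which starts within the next kilobase, was lower at -0.52. The last gene, Il18rap, was not called.

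On a list of STAT5 targets and SOCS feedback genes, members were more often higher than lower in Treg. Of 18 tested members 10 were higher and 3 lower, with a median of 0.47. The higher members include Il2ra, whose product CD25 was used in the sort. Cish, a feedback inhibitor of STAT5, had 7799 and 8448 in Treg against 2107 and 2366 in Teff (3.64-fold, adjusted p = 1.83e-05). Il2rb, the beta chain of the interleukin-2 receptor, had 29153 and 29452 against 12751 and 13881 (2.20-fold). The lower members were Pim2, Bcl2 and Jak1. Pim2, a survival kinase, had 739 and 777 in Treg against 2236 and 2169 in Teff (log2 fold change -1.54).

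Receptors for chemokines and egress signals were split evenly, with 10 of 25 tested members higher, 10 lower and a median of -0.05 whose sign changed in 2 of 15 alternatives. Ptger2, a receptor for prostaglandin E, had 2284 and 2243 in Treg against 507 and 539 in Teff (4.33-fold, adjusted p = 1.41e-05). Cxcr6, a receptor of tissue-homing T cells named after its values were seen, had 114 and 99.1 against 1006 and 1257 (log2 fold change -3.39). Integrins and adhesion molecules had 6 of 25 tested members higher and 12 lower, with a median of -0.29. The members with the smallest p were nonetheless higher: after Itgae came Icam1, with 3886 and 3845 against 1588 and 1595, and Itgav, with 2129 and 2065 against 737 and 682. Ly6a, the surface protein Sca-1, was lower, with 1606 and 1671 against 3944 and 4313 (log2 fold change -1.33). Ly6a has close relatives in its gene family, so its reads may be shared with them.

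Genes of TGF-beta activation and reception had no common direction. On this list 6 of 18 tested members were higher, 4 were lower, and the median was 0.17. Itgav and Itgb8 encode the chains of an integrin that frees active TGF-beta from GARP. Itgb8 had 1484 and 1322 in Treg against 346 and 439 in Teff (3.59-fold, adjusted p = 0.000129). Tgfbr2, a receptor chain, had 4710 and 4488 against 8267 and 8858 (log2 fold change -0.90, adjusted p = 7.05e-05). The other receptor chain, Tgfbr1, was higher in Treg, at 0.89, so the receptor genes did not share a direction. Of the ligands, Tgfb1 was higher at 0.86 and Tgfb3 lower at -2.76, both named after their values were seen.

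The enzymes and receptors of extracellular nucleotides and NAD were more often higher, with 7 of 13 tested members higher, 1 lower and a median of 0.55. Entpd1 and Nt5e encode CD39 and CD73, which turn extracellular ATP into adenosine. Entpd1 had 680 and 922 in Treg against 190 and 247 in Teff (3.64-fold), and Nt5e had 4722 and 5799 against 2229 and 2279 (2.32-fold). The adenosine receptor gene Adora2a had 1584 and 1712 against 746 and 739 (2.22-fold, adjusted p = 8.95e-05). Cd38, an NAD-consuming enzyme, had 558 and 559 against 180 and 190 (3.01-fold). Art2a was the lower member and is described with the KO libraries.

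Proliferation genes differed little. Of 32 tested genes of DNA replication and mitosis 5 were higher and 1 was lower, with a median of 0.08, and 26 were not called. The share of higher calls was near the 14.1% of all genes tested. The higher genes were the helicase subunits Mcm6, Mcm5, Mcm3 and Mcm7 and the thymidine kinase Tk1. Mcm6 had 2149 and 2130 in Treg against 1183 and 1258 in Teff (1.75-fold, adjusted p = 0.000483). Mki67, a marker of cycling cells, had 2568 and 2338 against 2109 and 2150 and was not called (adjusted p = 0.141). The lower gene, Ccne1, was lost with any single library left out.

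In energy metabolism, 6 of 19 tested glycolysis genes were higher and 3 lower, with a median of 0.24. Hif1a, a regulator of glycolysis, had 11215 in both Treg libraries against 6074 and 6508 in Teff (1.78-fold, adjusted p = 8.95e-05). Slc16a3, which exports lactate, had 445 and 330 against 105 and 131 (3.24-fold). Ldha, which makes lactate, was lower, with 8069 and 7976 against 9835 and 10403 (log2 fold change -0.33). The lower calls of Ldha, Pfkp and Eno1 numbered 1 to 2 when single libraries were left out. Of 30 respiratory chain genes 4 were lower and none was higher, with a median of -0.11. With single libraries left out 1 to 6 were lower and 0 to 1 higher. All 4 lie in the mitochondrial genome (ND1, COX1, ND2 and CYTB), and under quantile normalization no mitochondrial gene was called, with CYTB at 0.07. Quantile normalization gives equal values to equal ranks across libraries, so it can hide differences among the highest genes. The call of CYTB was lost in 7 of the other alternatives and that of ND2 in 5 of all 15. Lower calls in the respiratory chain list and in the cholesterol synthesis list were near the share over all genes tested, 12.1%. Of 23 cholesterol synthesis genes 3 were lower, among them Sqle and Fdps at -0.52 and -0.41, and 0 to 1 were lower with a library left out.

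Genes of protein folding in the endoplasmic reticulum, the compartment that IRE1a surveys, were nearly level. Of 37 tested members 4 were higher and 4 lower, with a median of -0.01, and with single libraries left out 1 to 2 were higher and 2 to 3 lower. Calr, a chaperone, had 14105 and 14276 in Treg against 11218 and 10795 in Teff (1.29-fold, adjusted p = 0.00174). Dnajc3, a co-chaperone, had 2188 and 2123 against 3034 and 3170 (log2 fold change -0.53, adjusted p = 0.000945). Xbp1, whose mRNA IRE1a splices, had 1602 and 1648 against 1359 and 1286 and was not called (adjusted p = 0.0655). Gene-level values do not show splicing.

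Interferon response genes had no common direction, with 6 of 33 tested members higher and 5 lower, against 14.1% and 12.1% of all genes tested. Their median was -0.03. The lower calls numbered 3 to 4 with a library left out. Oas2 and Oas1a, sensors of double-stranded RNA from one gene family, differed in opposite directions. Oas2 had 156 and 176 in Treg against 698 and 594 in Teff (log2 fold change -1.95), and Oas1a had 965 and 998 against 654 and 611 (1.55-fold). Relatives of Oas1a are near copies, so its reads may be split among them. Gbp7, a guanylate-binding protein, had 3023 and 3053 against 1623 and 1690 (1.83-fold).

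Genes of cell death and survival differed in direction within the BCL-2 family. Of 20 tested members 6 were higher and 4 lower, with a median of 0.26. Bcl2l1, which encodes the survival protein BCL-XL, had 1685 and 1717 in Treg against 695 and 743 in Teff (2.37-fold, adjusted p = 0.000176). Bcl2, another survival protein, had 3510 and 3539 against 4856 and 4850 (log2 fold change -0.46, adjusted p = 0.000527). Bik, a death-promoting relative, had 14.5 and 14.1 against 79.9 and 91.4. The GIMAP GTPases, which control lymphocyte survival, had 3 of 8 members higher and 1 lower, led by Gimap7 with 2805 and 2623 against 1499 and 1685 (1.71-fold). With a library left out, 1 to 2 GIMAP genes were higher.

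Genes of the translation machinery made up a smaller share of the Treg libraries. Of 79 tested cytosolic ribosomal protein genes 67 were lower and none higher in Treg, with a median log2 fold change of -0.47. They took 5.34% and 5.35% of the Treg libraries against 6.97% and 7.36% of the Teff libraries. Under 4 other scalings 62 to 68 were lower and the median lay between -0.50 and -0.37. Rpl13a had 34891 and 34540 in Treg against 55184 and 66879 in Teff (log2 fold change -0.81, adjusted p = 0.000774). Eef1a1, an elongation factor of translation, had 213850 and 224402 against 270437 and 259615 (log2 fold change -0.27, adjusted p = 0.0236), and its call was lost when any single library was left out. Ribosomal protein genes have many processed copies, and reads may be shared with them.

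By the size of the difference in value, the genes highest in Treg were led by Tnfaip3, Bhlhe40 and Zfp36l1. Tnfaip3, which encodes A20, an inhibitor of NF-kB, had 103422 and 98560 in Treg against 52507 and 56067 in Teff (1.86-fold, adjusted p = 0.00186). Bhlhe40, a transcription factor gene, had 33538 and 31741 against 10853 and 11244 (2.95-fold). Zfp36l1, which encodes an mRNA decay factor, had 34040 and 33244 against 14304 and 14467 (2.34-fold). Ctla4, Nfkbia, Il2rb and Ikzf2 followed, and then Ly6e, Ctsb and Serinc3. Those lowest in Treg were the mitochondrial COX1, ND1, CYTB and ATP8 and translation genes with Tcf7. COX1 had 308242 and 317033 against 376639 and 455157 (log2 fold change -0.41, adjusted p = 0.00810), and its call was lost without WT Treg replicate 1 and under quantile normalization. Its log2 fold change under quantile normalization was 0, a value that this method fixes for a gene of the same rank in every library. The losses of CYTB are given above, and the call of ATP8 was lost without WT Treg replicate 2, under quantile normalization and with neither trend nor robust shrinkage.

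The largest folds fell partly on genes of other cells. Of the 15 largest folds higher in Treg among genes reaching a mean of 100, 9 differed more than 2-fold between the Teff libraries. In 8 of them Teff replicate 1 was the higher, among them Slc11a1, Marco, Fcna and Slc40a1, which are macrophage genes, and the remaining one was Lrrc32. Slc11a1, a metal transporter of phagosomes, had 1036 and 1090 in Treg against 50.6 and 3.89 in Teff (log2 fold change 6.06 ± 1.02 SE, adjusted p = 0.00455). Lypd1, a membrane-anchored protein (chromosome 1, 125867622 to 125913101), had 143 and 144 against 0.888 and 1.00, with even Teff libraries. Gbp2b, an interferon-induced GTPase with near copies, had 230 and 235 against 4.02 and 4.03. The rest of the 15 were Tdpoz8, Cxcl2, Dysf, Lrrc32, Fsd1l, Slc45a3, Marchf8, Dnah7a and C6.

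Of the 15 largest folds lower in Treg, several belong to innate-like lymphocytes and dendritic cells. Zbtb16 encodes PLZF, the factor of NKT cells (chromosome 9, 48654297 to 48836222), and had 2.35 and 1.57 in Treg against 192 and 202 in Teff (log2 fold change -6.08 ± 0.39 SE, adjusted p = 7.04e-05). Il22, a cytokine of Th17 and innate-like lymphocytes, had 7.84 and 2.94 against 296 and 353. Siglech, a receptor of plasmacytoid dendritic cells, had 5.28 and 2.94 against 196 and 216. Dapl1, a gene of naive T cells (chromosome 2, 59484653 to 59505020), had 26.5 and 14.7 against 700 and 767 (log2 fold change -5.14). The rest were Il17rc, Cnga1, Cbfa2t3, Adgrg5, Flt3, Gzmk, Ptgs2, Klrd1, Klrc2, Adam11 and Atp8b4, and Ptgs2 alone among the 15 differed more than 2-fold between the Teff libraries.

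The same contrast in the libraries labelled KO was set beside that in WT. Ern1 had 326 and 359 in KO Treg and 458 and 453 in KO Teff, with means of 342 and 455 against 388 and 587 in WT, so its RNA was still present. Reads over all of Ern1 enter these values and the deleted stretch is not named, which leaves the genotype labels unchecked. KO Treg against KO Teff gave 3582 calls (27.9%) over the same genes. Of the WT calls 2459 were also called with the same sign in KO, 73.1% of the WT calls and 68.7% of the KO calls, and 13 were called with opposite signs. The comparisons share no library, but they share the estimate of the spread. The difference between the 2 genotypes' fold changes was called for 3 genes (0.0234%), while 1356 had an unadjusted p below 0.05. Treg identity genes had no call in this test, and for Foxp3 the log2 fold change was 6.52 in WT Treg over Teff and 4.43 in KO (adjusted p = 0.393 for the difference), a size that rests on Teff values listed at 0 in WT.

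Zswim9, a zinc finger gene on chromosome 7 (13258967 to 13278721), had 20.0 and 22.2 in WT Treg against 206 and 277 in WT Teff, but 269 in both KO Treg libraries against 210 in both KO Teff libraries. Only the WT Treg libraries stood low. The log2 fold changes were -3.44 in WT and 0.36 in KO, a difference of -3.79 ± 0.26 (SE, adjusted p = 0.00880). Art2a belongs to a family of ADP-ribosyltransferases of the T cell surface but is annotated as a polymorphic pseudogene (chromosome 7, 101552453 to 101560865). Its RNA need therefore not give a working enzyme in these mice. It had 386 and 400 in WT Treg against 648 and 671 in WT Teff, and 290 and 267 in KO Treg against 87.7 and 94.8 in KO Teff. Its direction was thus opposite in the genotypes, with a difference of -2.34 ± 0.16 (adjusted p = 0.00880). Reads of Art2a may be split with its near copy Art2b, which was not called (difference -0.91, adjusted p = 0.101). The third gene was the T cell receptor segment Trav7d-6, one of several near-identical copies, which was listed at 0 in WT Treg. The call of Art2a was lost when any single WT library was left out, with adjusted p from 0.0535 to 0.123, and that of Zswim9 without WT Treg replicate 1 or WT Teff replicate 2 (adjusted p = 0.0632 and 0.0852).

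**Figure D5:**
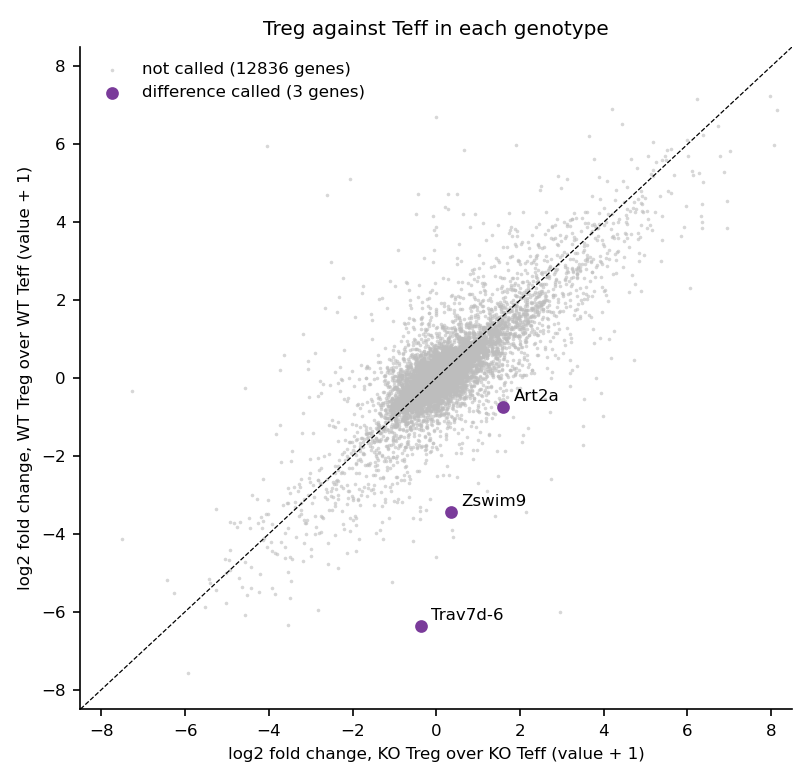
Log2 fold change of Treg over Teff in WT (vertical axis) against that in KO (horizontal axis) for the 12839 genes tested, with 2 libraries per group; the dashed line marks equal values. The 3 purple points are Zswim9, Art2a and Trav7d-6, for which the difference between genotypes was called, and they lie below the line.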

How the data were processed

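Per the labels' protocols, RNA from sorted spleen T cells was extracted with TRIzol, selected with oligo(dT) beads, primed with random hexamers and sequenced as 50-base single-end reads; no strand marking and no molecular identifiers are named, so reads of a gene and its overlapping or antisense partner are counted together. The tools named in the submitters' processing notes are DESeq2 1.28.1, R 4.0.3, Salmon 0.14.1 and Trim Galore 0.4.4, and the build is mm10. The authors deposited a signal per gene and library, a fractional read number after normalization. Steps of 0.981 to 1.03 gave whole multiples (tolerance 0.02) for 45.5% to 46.8% of low values, so count tests were not used. Library sums were nearly even.

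Libraries were grouped by their cell type and genotype labels. The test was that of limma 3.58.1 in R 4.3.3 on log2(value + 1), with robust shrinkage along a trend and 1 coefficient for each of 4 groups over 8 libraries (4 residual degrees of freedom), on genes with at least 10 in at least 2 WT libraries. P-values were Benjamini-Hochberg adjusted over all 12839 genes and called below 0.05. The script was tested on simulated data. Alternatives were pseudocounts of 0.5 and 5, other filters, 4 scalings, the WT libraries alone, a replicate block, plain shrinkage and leaving out each WT library. Coordinates are of whole genes in GENCODE M21 (GRCm38), which held all 18438 identifiers, 17918 in the same version. Promoter windows, held for 77.4% of the genes tested, are RefSeq's (GRCm38.p6). Python 3.11.15, pandas 2.3.3 and matplotlib 3.10.9 made tables and figures.

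The members and the 34 gene lists were chosen with earlier results of these data known. Named genes are Il2ra, Foxp3, Cd4 and Ern1, in each list the tested members of smallest p (at most 4), per direction the 15 largest folds (no overlap, mean of at least 100 in the higher group) and the 10 largest differences in value, and up to 6 genes per direction called between genotypes. Called genes listed at 0 in one group with a mean of at least 100 in the other would have been named, but none qualified. Predicted genes, pseudogenes by symbol and receptor segments were left out of the picks beyond the lists. A few genes that this rule names are not reported here. Other names complete a count or were chosen after their values were seen.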

Additional observations from a re-analysis of the deposited data

Results flagged for a closer look

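The Treg to Teff difference of 2 genes differed between genotypes by a test of the difference itself (limma, Benjamini-Hochberg adjusted over all genes tested). For Zswim9 the log2 fold change in WT minus that in KO was -3.79 (SE 0.26, adjusted p = 0.00880), with WT Treg low at 20.0 and 22.2 and the other 6 libraries between 206 and 277. For Art2a it was -2.34 (SE 0.16, adjusted p = 0.00880), lower in Treg in WT (log2 fold change -0.74) and higher in Treg in KO (1.60). Over the alternatives that could be fitted the adjusted p ranged from 0.00776 to 0.122 for Zswim9 and from 0.00776 to 0.123 for Art2a.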

How the results depend on the processing

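Under 11 alternatives that kept all 4 WT libraries the calls numbered 2850 to 3501, against the reported 3366. With single libraries left out they ranged from 2149 to 2581, the higher calls from 1164 to 1433 and the lower calls from 985 to 1148 (1019 without WT Teff replicate 2); the cause was not tested beyond the loss of a library, which leaves its group with 1 library assumed to vary like the others. The replicate numbers of Treg and Teff showed no sign of pairing (correlation of same-numbered deviations 0.0789 in WT and -0.000107 in KO over 10387 genes, 2 pairs each). So few pairs cannot show whether same-numbered libraries shared a mouse or a day. With a replicate block 2850 genes were called, 2720 of them shared with the reported calls, and 0 for the difference between genotypes. That difference, called for 3 genes, was called for 5 with no filter, with a filter of 50, with library totals or with upper-quartile scaling, for 10 with neither trend nor robust shrinkage, and for 0 to 3 with single libraries left out; the cause was not tested. Of 157 called named genes 141 were called in every one of the 15 alternatives, and CYTB changed sign (0.0693 under quantile normalization). Uncalled neutrophil genes changed sign with a library left out: Ltf ranged from -0.976 to 3.25, Mpo from -1.37 to 0.210 and Ngp from -0.149 to 1.67. The medians of 5 of 34 lists (ER folding, chemokine receptors, cytokine receptors, interferon response and neutrophil) changed sign in 1 to 3 alternatives. Scalings moved the median of all genes to between -0.06 and 0.05. Without counts, depth sets no interval, and values near the filter are the least certain.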
